A study of Mus musculus with 6 samples.

Results

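The early response genes described here are Egr1, Egr2, Egr3, Klf2, Klf4, Ier2, Ier3, Zfp36, Dusp1 and Dusp6. They were taken by symbol from the 22186 genes of the deposited table, and all 10 were found. Messenger RNA was sequenced in primary adipose-derived stromal cells (ADSCs, fibroblast-like cells of fat that can form several mesenchymal lineages) of wild-type mice. In 3 libraries the ADSCs had been co-cultured for 48 h with Treg (regulatory T cells, which hold immune responses in check), and in 3 control libraries they had not. Both groups were wild type, libraries of the same number share a batch per the labels, and no age, sex or further agent is given. The labels tie no replicate to an animal or culture of its own, and the p-values may thus rest on technical spread alone. No group was co-cultured with another cell type, so an effect of Treg and one of co-culture as such cannot be told apart.

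Early response genes are transcribed within minutes of a growth factor, cytokine or mechanical stimulus without new protein synthesis. Many are switched on when ERK kinases activate serum response factor (SRF) and its ETS-family partners at the promoter, or when cAMP signalling activates CREB. Their messages are short-lived, and several of the proteins, among them the DUSP phosphatases and the RNA-binding protein ZFP36, shut the response down again. The libraries hold a single time, so they give the standing level of these transcripts and not the course of a response.

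After Treg co-culture, 6 of the 10 genes were lower than in control ADSCs (Egr1, Ier2, Zfp36, Dusp1, Klf4 and Klf2), 1 was higher (Dusp6), and Egr2, Egr3 and Ier3 did not pass the test. Egr1 fell the furthest, to 135 ± 4.66 TPM in co-cultured ADSCs, against 298 ± 6.91 TPM in control ADSCs (mean ± SD, n = 3 each). TPM, the unit of the deposited values, is a length-corrected share of all transcripts of a library, scaled to 1000000. The test was limma on log2(TPM + 1), with p-values adjusted by Benjamini-Hochberg over the 12405 genes that averaged 1 TPM or more, and a threshold of 0.05. By that test 37.8% of all genes tested passed, 18.0% being lower and 19.8% higher after co-culture. The share of members that were lower is thus above that background, the share that were higher below it, and neither was tested over a list of this size. The groups did not overlap for 7 of the 10 members, the same 7 that passed, beside 49.3% of all genes tested. The members' median log2 fold change was -0.36, beside 0.0015 over all genes tested. Each library gives a single level per gene over all its cells, so fewer cells of a type and less RNA per cell cannot be told apart.

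Promoter sequences from RefSeq are given for 4 members with different calls, because early response genes are grouped by the elements that lie near their starts. Windows of 250 bases before to 50 bases after an annotated transcript start were searched for 7 of the 10 members. Egr3 and Ier2 had no window in the annotation used, and Egr1 was left out of the search. Capitals mark matches to the CArG box bound by SRF, the cAMP response element TGACGTCA, the ETS motif CCGGAA and the EGR motif GCGGGGGCG, searched on both strands.
Zfp36 (chr7:28379179-28379478, minus strand, GRCm38.p6): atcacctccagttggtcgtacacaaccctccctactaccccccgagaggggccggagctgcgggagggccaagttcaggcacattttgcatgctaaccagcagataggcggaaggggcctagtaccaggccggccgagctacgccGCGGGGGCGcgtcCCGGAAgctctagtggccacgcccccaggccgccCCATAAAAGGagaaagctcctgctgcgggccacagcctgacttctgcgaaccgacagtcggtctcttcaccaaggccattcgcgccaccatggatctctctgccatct
Dusp1 (chr17:26508423-26508722, minus strand, GRCm38.p6): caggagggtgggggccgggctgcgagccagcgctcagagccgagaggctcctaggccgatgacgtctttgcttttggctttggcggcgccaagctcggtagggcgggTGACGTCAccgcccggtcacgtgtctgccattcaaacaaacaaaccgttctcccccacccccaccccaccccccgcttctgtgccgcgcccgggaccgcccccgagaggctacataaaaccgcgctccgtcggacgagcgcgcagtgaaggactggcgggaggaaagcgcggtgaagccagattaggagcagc
Egr2 (chr10:67537619-67537918, plus strand, GRCm38.p6): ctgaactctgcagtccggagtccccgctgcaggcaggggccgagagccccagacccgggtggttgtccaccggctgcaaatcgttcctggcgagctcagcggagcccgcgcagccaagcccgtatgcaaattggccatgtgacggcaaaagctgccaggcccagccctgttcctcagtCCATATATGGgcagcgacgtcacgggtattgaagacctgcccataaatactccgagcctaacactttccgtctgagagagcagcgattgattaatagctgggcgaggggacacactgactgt
Dusp6 (chr10:99262981-99263280, plus strand, GRCm38.p6): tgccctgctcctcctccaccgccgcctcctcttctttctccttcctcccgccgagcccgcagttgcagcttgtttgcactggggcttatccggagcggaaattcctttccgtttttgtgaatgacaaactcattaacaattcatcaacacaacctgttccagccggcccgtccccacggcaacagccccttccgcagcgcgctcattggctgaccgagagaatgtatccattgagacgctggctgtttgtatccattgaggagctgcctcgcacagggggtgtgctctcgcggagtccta

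A CArG box stood in the Zfp36 window, at bases -58 to -49 from the start, and in 4 of the 5 Egr2 windows, which belong to alternative starts and partly overlap. In the Egr2 window printed above it lay at bases -72 to -63, and the same box lay at bases -133 to -124 in an overlapping window. Of all 32851 promoter windows of the same length, 1.63% held this motif. Zfp36 fell and Egr2 did not pass the test, so the 2 searched members with a CArG box in these windows did not share a call. Egr1, which was not searched, has no part in this comparison. The Zfp36 window also held 1 ETS motif, found in 14.9% of all windows, and 1 EGR motif, found in 2.91%. Another Egr2 window, not printed, held 3 ETS matches, of which 2 overlap, beside its CArG box. Klf2 and Klf4 each held 1 EGR motif as well. Among the 7 members searched, the full cAMP response element occurred in Dusp1 alone, at bases -143 to -136, and in 1.79% of all windows. Its shorter form TGACG, which overlaps the full element, was found 3 times in Dusp1, 1 time each in Klf2 and Klf4 and 2 times in the printed Egr2 window, at bases -111 to -107 and -55 to -51, against 20.8% of all windows with at least 1. The windows of Dusp6 and Ier3 matched none of these motifs. The sequence TATAAA, found in 13.6% of all windows, matched none of the members' windows searched. A match describes letters and is no evidence of binding, and a window without one says nothing about sites elsewhere.

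**Figure D1:**
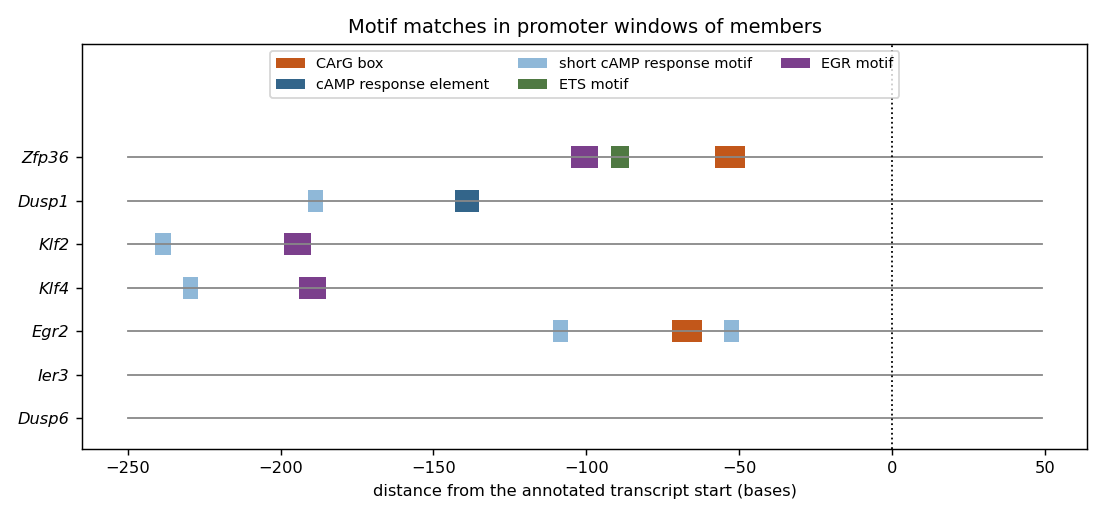
Positions of motif matches in promoter windows of 7 members, as distance in bases from the annotated transcript start (dotted line), for 1 of the 5 Egr2 windows and the only window of the others. Coloured blocks are matches on either strand. The CArG box of Zfp36 and that in the Egr2 window shown lie at like distances from the start, and the windows of Ier3 and Dusp6 are empty.

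EGR1, EGR2 and EGR3 are zinc finger transcription factors that bind the same GC-rich sequence. EGR1 responds to growth factors and injury in many cell types, while EGR2 is best known for myelination by Schwann cells and EGR3 for muscle spindles and T cells. Egr1 (NCBI Gene 13653) had 131, 134 and 141 TPM in Treg co-culture libraries 1 to 3, against 292, 296 and 306 TPM in control libraries 1 to 3. The groups lay far apart, and the mean in control ADSCs was 2.20-fold higher. The log2 fold change of -1.13 (SE 0.033) passed the test (limma adjusted p = 5.90e-09), and 50 genes of the table, Egr1 among them, were lower by at least as much and passed. Egr1 was also one of the more abundant transcripts, with a mean level above 94.5% of the genes tested.

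Egr2 (NCBI Gene 13654) stood at 21.6, 24.7 and 27.0 TPM in Treg co-culture 1 to 3 and at 26.6, 25.3 and 23.1 TPM in controls 1 to 3. Its groups overlapped, and the 95% interval of its log2 fold change ran from -0.22 to 0.15 (limma adjusted p = 0.761). Egr3 (NCBI Gene 13655) had 9.75, 12.3 and 14.9 TPM in Treg co-culture 1 to 3, and 9.57, 10.9 and 10.8 TPM in controls 1 to 3. The co-culture libraries spread more widely than the controls, with library 1 among the control values and library 3 above them all. The log2 fold change of Egr3 was 0.21 with an interval of -0.08 to 0.49 (limma adjusted p = 0.239). Without Treg co-culture 1 it was 0.35 and passed the test (adjusted p = 0.0323). Egr1 supplied 77.1% to 80.8% of the summed TPM of Egr1, Egr2 and Egr3 in co-cultured ADSCs and 89.0% to 90.0% in control ADSCs.

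NAB1 and NAB2 are co-repressors that bind EGR proteins and limit their activity. Nab1 was slightly lower after co-culture, at 67.5 ± 3.39 TPM, against 76.6 ± 2.46 TPM in control ADSCs (log2 fold change -0.18, limma adjusted p = 0.0112). Nab2, named though it did not pass the test, had 130 ± 2.87 TPM in co-cultured ADSCs and 135 ± 1.83 TPM in control ADSCs (adjusted p = 0.200). The fourth family gene, Egr4, was chosen after its values were seen and was below the level tested, at 0.0620 to 0.402 TPM in co-cultured ADSCs and 0.134 to 0.305 TPM in control ADSCs.

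**Figure D2:**
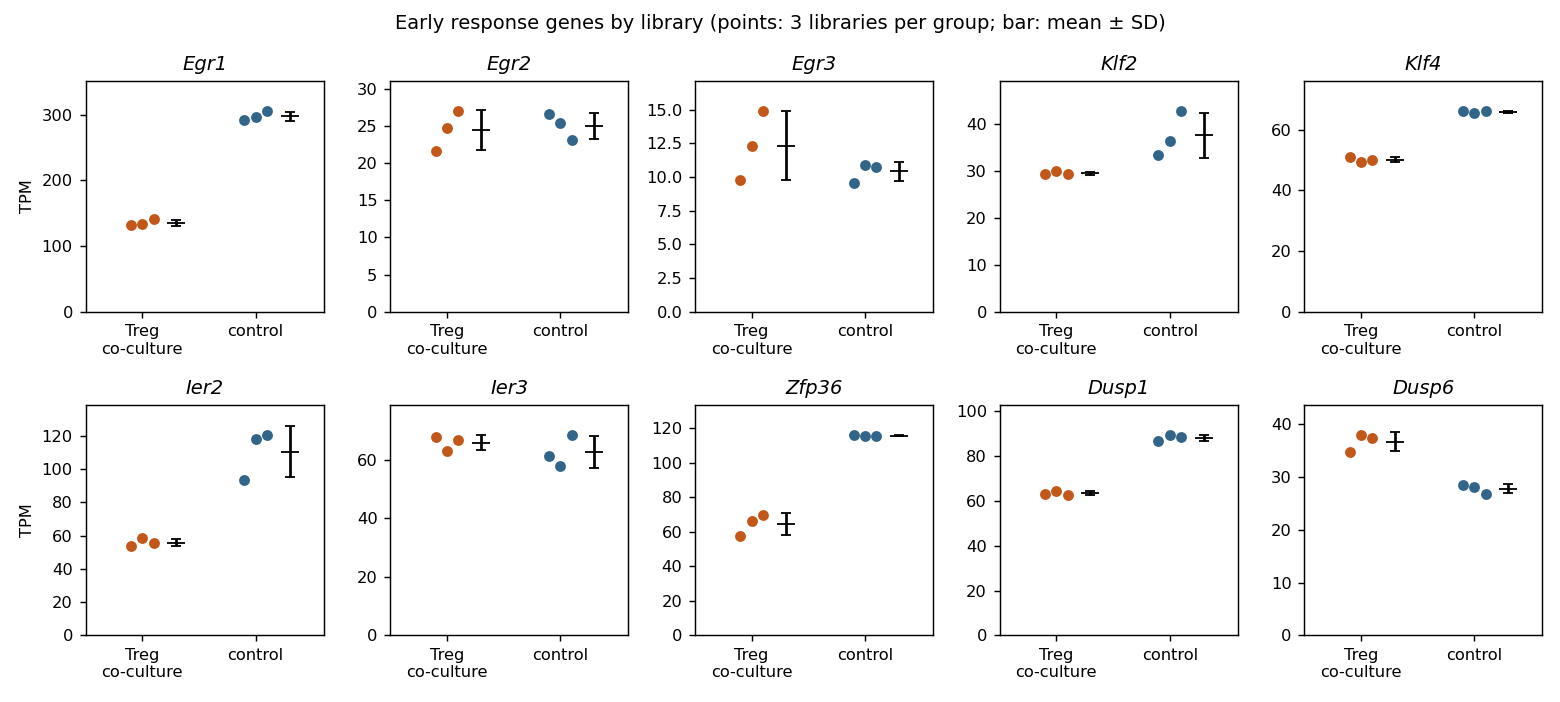
Level in TPM (y axis, from 0, with its own scale in each panel) of the 10 early response genes in the 3 Treg co-culture libraries (orange, left) and the 3 control libraries (blue, right), with mean ± SD beside each group. Egr1 at 131 to 141 TPM after co-culture lies far below the 292 to 306 TPM of controls, while the points of Egr2, Egr3 and Ier3 overlap between groups.

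KLF2 and KLF4 are Krüppel-like zinc finger factors. KLF2 is known for quiescence of endothelial cells and T cells, and KLF4 for epithelial barriers and for its use in reprogramming cells to pluripotency. Klf4 (NCBI Gene 16600) had 51.0, 49.2 and 50.1 TPM in Treg co-culture 1 to 3 and 66.1, 65.5 and 66.1 TPM in controls 1 to 3. Both groups were tight and apart, with a log2 fold change of -0.39 (SE 0.038, limma adjusted p = 2.89e-05). Klf2 (NCBI Gene 16598) had 29.4, 30.0 and 29.5 TPM in Treg co-culture 1 to 3, against 33.6, 36.5 and 42.8 TPM in controls 1 to 3. The co-culture values were close together and the control values spread, with control 1 the nearest to the co-culture libraries. It fell by 0.33 on the log2 scale (SE 0.078, limma adjusted p = 0.00769). The log2 fold change was -0.23 without control 3, and still past the threshold.

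Of 15 other Klf genes, 11 reached the level tested, of which 6 were lower, 2 higher and 3 not called. Their median log2 fold change was -0.19. Over all genes tested, 18.0% were lower and 19.8% higher, so the share of these genes that rose was near the background. Klf9, a factor induced by glucocorticoids, was lower at 57.3 ± 2.64 TPM in co-cultured ADSCs, against 75.1 ± 2.25 TPM in control ADSCs (-0.38, limma adjusted p = 1.00e-04). Klf5, which is active in proliferating smooth muscle and epithelial cells, was higher at 15.0 ± 0.960 TPM, against 6.23 ± 1.63 TPM in control ADSCs (1.17, adjusted p = 1.76e-04). Klf10, a gene induced by TGF-beta, was also higher, at 44.3 ± 3.00 TPM after co-culture and 28.4 ± 1.99 TPM in control ADSCs (0.62, adjusted p = 5.23e-05). Klf2 and Klf4 were thus among the Klf genes that fell.

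IER2 and IER3 are small early response proteins that are unrelated in sequence. IER2 acts in the nucleus in transcription, and IER3 affects cell survival and ERK signalling. Ier2 (NCBI Gene 15936) had 53.6, 58.4 and 55.6 TPM in Treg co-culture 1 to 3, against 93.3, 118 and 121 TPM in controls 1 to 3. Control 1 lay below the other controls but well above every co-culture library. The mean was 55.9 ± 2.37 TPM in co-cultured ADSCs and 111 ± 15.1 TPM in control ADSCs, with a log2 fold change of -0.96 (SE 0.084, limma adjusted p = 1.28e-05). Ier3 (NCBI Gene 15937) stood at 67.9, 63.1 and 66.8 TPM in Treg co-culture 1 to 3 and at 61.5, 57.9 and 68.6 TPM in controls 1 to 3. These groups overlapped, and the interval of its log2 fold change was -0.06 to 0.21 (limma adjusted p = 0.358).

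ZFP36, also called tristetraprolin, binds AU-rich elements in the tails of cytokine and growth factor messages and speeds their decay. Zfp36 (NCBI Gene 22695) had 57.6, 66.1 and 69.9 TPM in Treg co-culture 1 to 3 and 116, 115 and 116 TPM in controls 1 to 3. The controls were nearly equal, and Treg co-culture 1 was the lowest of all libraries. It fell by 0.84 on the log2 scale (SE 0.061, limma adjusted p = 3.46e-06), and by 0.76 without Treg co-culture 1. Both expressed paralogs, whose proteins bind the same element, fell with it. Zfp36l1 had 87.2 ± 1.62 TPM in co-cultured ADSCs and 134 ± 5.68 TPM in control ADSCs (-0.62, SE 0.038, adjusted p = 1.15e-06). Zfp36l2 had 100.1 ± 2.68 TPM in co-cultured ADSCs and 151 ± 3.70 TPM in control ADSCs (-0.58, SE 0.035, adjusted p = 8.38e-07). Zfp36l3 was listed at 0 in every library.

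In a list of transcripts with AU-rich elements that ZFP36 is known to bind, most of those tested were on the other side. Fos, Dusp1 and Zfp36 itself, which fell, were not counted in it. The list shares Myc and Plk3 with the other early response genes below, so its balance depends on the genes chosen. Of its 16 genes, 10 reached the level tested, and of these 8 were higher, 1 lower and 1 not called. The background over all genes tested was 19.8% higher and 18.0% lower. Their median log2 fold change was 0.31. The prostaglandin-forming enzyme gene Ptgs2 had 68.9 ± 3.27 TPM after co-culture and 24.5 ± 0.727 TPM in control ADSCs (1.45, limma adjusted p = 2.06e-08). The cytokine gene Il6 had 19.3 ± 1.51 TPM after co-culture and 12.2 ± 1.29 TPM in control ADSCs (0.62, adjusted p = 3.77e-04), and the growth regulator Myc had 68.7 ± 4.95 TPM after co-culture and 50.7 ± 2.04 TPM in control ADSCs (0.43, adjusted p = 1.96e-04). The lower gene, named after its value was seen, was the chemokine gene Cxcl1, at 2.03 ± 0.268 TPM after co-culture and 3.74 ± 1.03 TPM in control ADSCs (-0.63, adjusted p = 0.0134). Without control 2 it missed the threshold. Message decay was not measured, and whether the lower Zfp36 level has a part in these values was not tested.

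**Figure D3:**
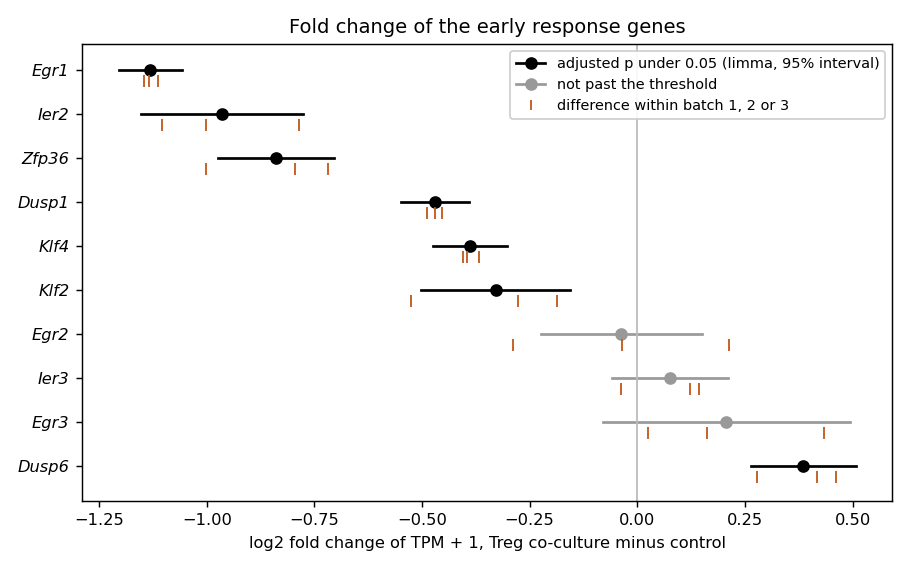
Log2 fold change of TPM + 1 (x axis, Treg co-culture minus control) of the 10 early response genes with its 95% interval from limma, black where it passed the threshold and grey where it did not. Orange ticks give the difference within each of the 3 batches. All 3 ticks of each called gene lie on the same side of 0, as groups that do not overlap require. They run from -1.15 to -1.11 for Egr1 and from 0.28 to 0.46 for Dusp6.

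DUSP1 and DUSP6 are phosphatases that switch MAP kinases off. DUSP1 sits in the nucleus and acts mainly on the stress kinases p38 and JNK, while DUSP6 sits in the cytoplasm, is specific for ERK and is itself induced by ERK. Their transcripts moved in opposite directions. Dusp1 (NCBI Gene 19252) had 63.2, 64.4 and 62.7 TPM in Treg co-culture 1 to 3, against 86.9, 89.5 and 88.4 TPM in controls 1 to 3. The groups lay apart, and Dusp1 fell by 0.47 on the log2 scale (SE 0.036, limma adjusted p = 4.72e-06). Dusp6 (NCBI Gene 67603) had 34.7, 38.0 and 37.4 TPM in Treg co-culture 1 to 3, against 28.4, 28.2 and 26.9 TPM in controls 1 to 3. Treg co-culture 1 was the nearest to the controls, and Dusp6 rose by 0.39 on the log2 scale (SE 0.055, limma adjusted p = 3.55e-04).

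Of 8 other MAP kinase phosphatase genes, 7 were tested, with 4 higher, none lower and 3 not called. Their median log2 fold change was 0.30. The background over all genes tested was 19.8% higher and 18.0% lower. The inducible phosphatase gene Dusp4 had 49.7 ± 1.63 TPM in co-cultured ADSCs and 35.0 ± 2.56 TPM in control ADSCs (0.49, limma adjusted p = 1.04e-04). Dusp10, which acts on p38 and JNK, had 15.2 ± 0.760 TPM after co-culture and 11.5 ± 0.277 TPM in control ADSCs (0.37, adjusted p = 0.00246). Dusp16 had 14.7 ± 0.557 TPM after co-culture and 11.8 ± 0.521 TPM in control ADSCs (0.30, adjusted p = 0.00794). Among the 9 phosphatase genes tested, both members included, Dusp1 was the only one lower past the threshold in this fit.

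In a list of genes that read out or limit ERK activity, more were higher than lower, as Dusp6 was. Egr1, Ier2 and Fos, which fell, were not counted in it. The list shares Dusp4 and Dusp5 with the phosphatase genes above and Fosl1 with the other early response genes below. Of its 17 genes, all tested, 9 were higher, 1 lower and 7 not called, with a median log2 fold change of 0.28. Over all genes tested, 19.8% were higher and 18.0% lower. Besides Dusp4, the ERK-induced gene Phlda1 was higher, at 34.9 ± 3.42 TPM in co-cultured ADSCs, against 24.1 ± 0.441 TPM in control ADSCs (0.51, limma adjusted p = 2.67e-04), as was the ephrin receptor gene Epha2, at 52.6 ± 2.10 TPM, against 39.2 ± 2.90 TPM in control ADSCs (0.42, adjusted p = 3.79e-04). Without Treg co-culture 2 this list had 2 lower genes. The lower gene of the full fit, Il17rd, an inhibitor of FGF signalling named after its value was seen, had 4.59 ± 0.276 TPM after co-culture and 6.53 ± 0.413 TPM in control ADSCs.

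Of 14 genes of the upstream RAS-ERK cascade, 3 were higher, 1 lower and 10 not called, beside the 37.8% of all genes tested that passed, with a median log2 fold change of -0.0039. The scaffold gene Ksr1 had 12.8 ± 0.629 TPM in co-cultured ADSCs and 19.6 ± 1.40 TPM in control ADSCs (-0.58, limma adjusted p = 1.94e-04). Nras was higher by 0.22 (adjusted p = 0.00260) and Hras by 0.20 (adjusted p = 0.00662). Of SRF and 6 cofactors, 6 were tested and 1 passed, Srf itself, at 45.1 ± 0.814 TPM after co-culture and 32.4 ± 2.85 TPM in control ADSCs (0.47, adjusted p = 2.66e-04). Without control 1, 2 genes of this list were higher. Transcript levels do not measure the activity of kinases or of SRF.

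Early response genes outside the 10 changed in both directions. Of 33 others, 32 were tested, of which 12 were higher, 8 lower and 12 not called, with a median log2 fold change of 0.04. The background over all genes tested was 19.8% higher and 18.0% lower. Fos, the AP-1 subunit often induced together with Egr1, had 30.7, 30.1 and 31.0 TPM in Treg co-culture 1 to 3 and 78.1, 78.1 and 75.1 TPM in controls 1 to 3 (-1.31, SE 0.042, limma adjusted p = 1.01e-08). The matricellular gene Ccn2 was higher, at 1126 ± 5.79 TPM, against 623 ± 3.25 TPM in control ADSCs (0.85, adjusted p = 5.75e-10). The kinase gene Plk2 was likewise higher, at 317 ± 0.834 TPM, against 203 ± 3.73 TPM in control ADSCs (0.64, adjusted p = 3.99e-08).

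**Figure D4:**
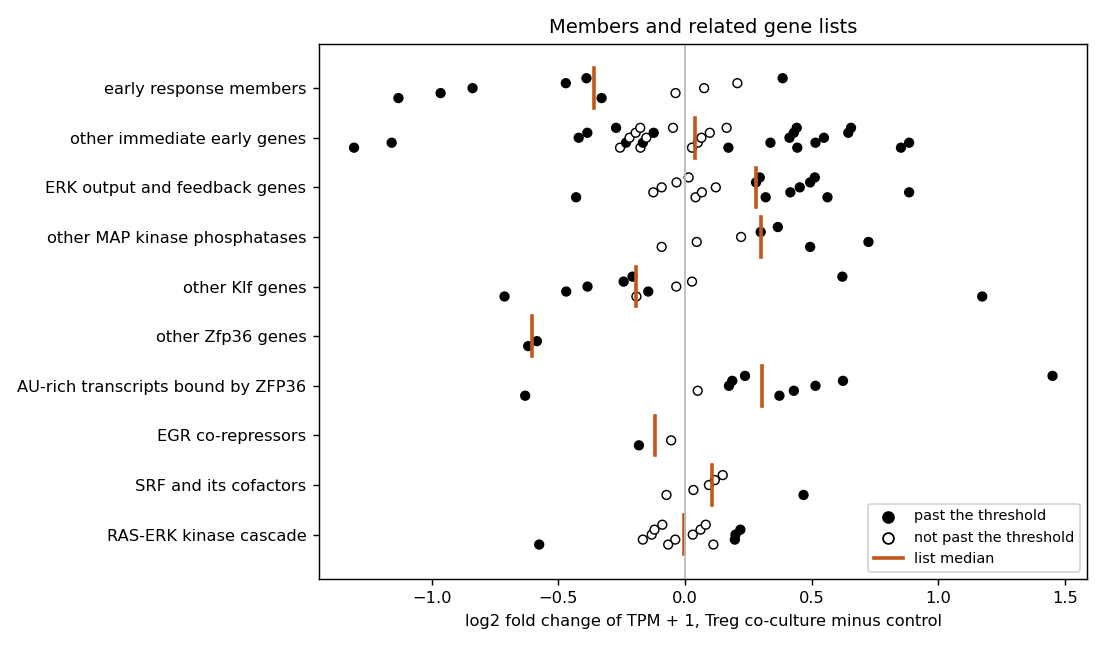
Log2 fold change of TPM + 1 (x axis, Treg co-culture minus control) of the 10 early response members and the tested genes of 9 related lists, 1 point per gene, filled where limma's adjusted p was under 0.05, with the list median as an orange line. Vertical spread of points within a row has no meaning. Medians run from -0.60 for the other Zfp36 genes to 0.31 for the AU-rich transcripts.

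Ratios between related members within a library do not depend on the scaling of TPM. The ratio of Egr1 to Egr2 was 6.09, 5.45 and 5.21 in Treg co-culture 1 to 3, against 11.0, 11.7 and 13.2 in controls 1 to 3. That of Ier2 to Ier3 was 0.790, 0.924 and 0.833 in Treg co-culture 1 to 3, against 1.52, 2.04 and 1.76 in controls 1 to 3. That of Dusp6 to Dusp1 was 0.549, 0.590 and 0.597 in Treg co-culture 1 to 3, against 0.327, 0.315 and 0.304 in controls 1 to 3. In each of these 3 the groups were apart, so the members of each pair did not change alike in these libraries. That of Klf2 to Klf4 overlapped, at 0.576, 0.608 and 0.589 in Treg co-culture 1 to 3 and 0.508, 0.557 and 0.648 in controls 1 to 3. An exact two-sided permutation test gave p = 0.1 for each of the first 3 ratios, the smallest that 3 against 3 libraries allow, and 0.133 after adjustment over the 4 ratios. For Klf2 to Klf4 the exact permutation p was 0.7. The pairs were chosen after the values were seen.

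**Figure D5:**
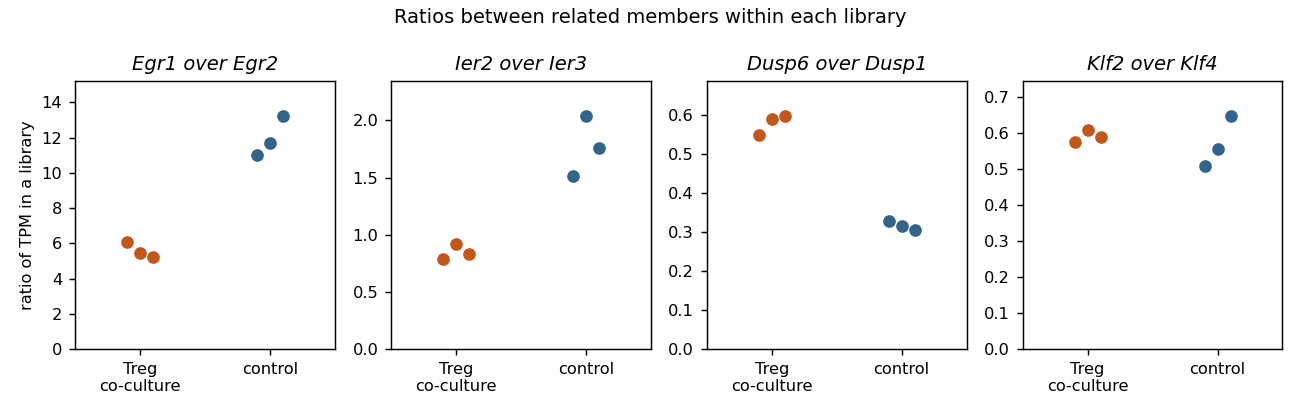
Ratio of TPM between 2 related members (y axis, from 0) in each Treg co-culture library (orange, left) and control library (blue, right). The Egr1 to Egr2 ratio of 5.21 to 6.09 after co-culture lies below the 11.0 to 13.2 of controls, and the Klf2 to Klf4 ratios overlap.

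TPM is corrected for length, so levels can be ordered between genes. In co-cultured ADSCs the order of mean levels was Egr1, Ier3, Zfp36, Dusp1, Ier2, Klf4, Dusp6, Klf2, Egr2 and Egr3, and the libraries of Ier3, Zfp36 and Dusp1 overlapped, as did those of Zfp36 and Ier2. In control ADSCs it was Egr1, Zfp36, Ier2, Dusp1, Klf4, Ier3, Klf2, Dusp6, Egr2 and Egr3, with overlap between Zfp36 and Ier2 and between Klf4 and Ier3. Egr1 held the highest level and Egr3 the lowest in both groups.

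The members also differed in how steady they were between libraries of a group. Klf4 and Dusp1 had residual SDs of 0.018 and 0.021 on the log2 scale, lower than those of all but 2.13% and 3.09% of the genes tested. Egr3 had 0.21, above 91.0% of genes, and Ier2 0.15, above 80.2%, beside a median of 0.081 over all genes tested. Treg co-culture 1 held the lowest value of its group for 7 of the 10 members. That library also differed from the other 5 in transcripts chosen after their values were seen. It had 64.9 TPM of the liver transcript Alb, against at most 0.21 TPM elsewhere. It also had 10.9 TPM of the muscle transcript Myl2, against at most 0.869 TPM elsewhere. Without Treg co-culture 1, the log2 fold change was -1.11 for Egr1, -0.94 for Ier2, -0.76 for Zfp36, -0.47 for Dusp1, -0.40 for Klf4, -0.32 for Klf2 and 0.42 for Dusp6. All 7 passed the limma test (largest adjusted p = 0.0229, for Klf2).

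Differences within batches, on the log2 scale, had one sign for each of the 7 called members, which follows from groups that do not overlap. They were -1.15, -1.13 and -1.11 for Egr1 in batches 1 to 3 and -0.79, -1.0 and -1.10 for Ier2. For Zfp36 they were -1.0, -0.80 and -0.72, and for Klf2 -0.19, -0.28 and -0.52. Egr2 differed by -0.29, -0.04 and 0.21, changing sign between batches.

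Over the 6 libraries, the profiles nearest to that of Egr1, the member with the lowest adjusted p, were those of the collagen gene Col14a1 (Euclidean distance 0.0799 between profiles scaled to mean 0 and SD 1), the vasodilator peptide gene Adm (0.083) and 9530068E07Rik (0.0894). With 2 separated groups this measure mostly reflects the step between them. Col14a1 had 28.7 ± 0.758 TPM after co-culture and 45.5 ± 0.553 TPM in control ADSCs, and Adm 142 ± 5.28 TPM after co-culture and 335 ± 4.60 TPM in control ADSCs.

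Markers were read for the labelled cells and for others that could carry these transcripts. The stromal markers were present in every library, led by Thy1, Pdgfrb and Ly6a, with summed levels of 7 genes of 1415 to 1443 TPM in co-cultured ADSCs and 1486 to 1491 TPM in control ADSCs. Of these 7, 4 were lower, 2 higher and 1 not called, beside 18.0% lower and 19.8% higher over all genes tested. Pdgfra was lower (log2 difference -0.45, limma adjusted p = 1.92e-06) and Cd44 higher (0.58, adjusted p = 6.08e-07). With any 1 library left out, 1 stromal marker was higher and 2 to 4 were lower. Of 10 T cell markers, 6 were listed at 0 in all libraries, among them Cd3e, Cd3d, Cd3g and Cd4, and the sum, mostly Ikzf2, Lck and Ptprc, was 3.63 to 4.17 TPM after co-culture and 3.25 to 3.76 TPM in control ADSCs. Endothelial markers, which matter for Klf2 and Klf4, summed over 7 genes to 34.4 to 36.1 TPM after co-culture and 39.7 to 41.7 TPM in control ADSCs, led by Tek, Kdr and Cdh5. Of the 5 tested, Tek (log2 difference -0.36, limma adjusted p = 0.00656) and Cdh5 (-0.45, adjusted p = 0.00753) were lower and Kdr was higher (0.27, adjusted p = 0.0285), the call of Kdr being lost when any 1 library was left out. Macrophage markers summed over 7 genes to 62.3 to 76.8 TPM after co-culture and 88.0 to 93.7 TPM in control ADSCs, led by Lyz2, Cd68 and Csf1r. Of the 6 tested, Lyz2 alone passed, at 44.7 ± 6.26 TPM after co-culture and 65.9 ± 4.18 TPM in control ADSCs (SD, n = 3 each), and without it the sums overlapped, at 19.57 to 25.03 TPM after co-culture and 23.22 to 26.49 TPM in control ADSCs. Csf1r averaged 5.38 TPM after co-culture and 4.58 TPM in control ADSCs and was not called. Skeletal muscle markers summed over 7 genes to 2477 to 2535 TPM after co-culture and 889 to 946 TPM in control ADSCs, led by Acta1, Des and Myog. All 7 were higher past the threshold, with the lowest adjusted p for Acta1 (1.41, limma adjusted p = 1.97e-10), Myh3 (1.69, adjusted p = 3.65e-10) and Myog (1.48, adjusted p = 1e-09). The stromal sum, the endothelial sum and Lyz2 were thus lower, and the muscle sum higher, beside the lower early response transcripts. Their part in these results was not tested.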

How the data were processed

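The authors deposited 1 table of TPM values, per the file headers, with 1 column per library and 1 row per NCBI Gene number. TPM keeps no sequencing depth, so depth is unknown and no counting interval is given. Per the submitters' processing notes, GRCm38, mm10 and GRCm39 were among the builds, without a stated role. For the aligner, counter, annotation and reads shared between paralogs, nothing is given in the sources used here. Of the gene numbers, 21992 (99.1%) matched a symbol in a RefSeq gene table of GRCm38.p6, used for names. Promoter windows came from RefSeq on that build.

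The 12405 genes that averaged 1 TPM or more across the 6 libraries, all 10 members included, were tested on log2(TPM + 1), a scale that shrinks changes of low genes. The test was made with limma 3.58.1 in R 4.3.3 (lmFit, eBayes with a mean-variance trend), Treg co-culture minus control, without a block. SE are limma's moderated errors. Ratios, added after the values were seen, were compared by an exact permutation test in SciPy 1.17.1. The fit was checked on simulated data. No pair of libraries had the same value, to the last digit deposited, in more than 60 of the 13935 genes above 0 in all libraries. No library was thus a copy of another, and each was counted as 1 replicate. Such a check cannot tell separate cultures from repeat libraries of 1 culture.

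The members and the 14 related lists were chosen with earlier results of these data known. All members are named. From each related list up to 3 called genes with the lowest adjusted p are named, from marker lists the 3 with the highest TPM, and the 3 profiles nearest to the member with the lowest p. Other names are marked as chosen after their values were seen.

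Libraries of 1 number share a batch per the labels, so a fit with the batch as a replicate block was an alternative. After subtraction of group means, libraries of the same batch correlated at 0.0115, -0.0146 and 0.00402 over genes. Further settings were no filter or one of 5 TPM, pseudocounts of 0.1 and 0.01, 3 other scalings (quantile, median-of-ratios, and without ribosomal protein and mitochondrial genes), eBayes with no trend, and leaving out each library.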

Additional observations from a re-analysis of the deposited data

How the results depend on the processing

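All 7 called members kept their direction and their call under each of the 15 alternatives. Egr1 ranged from -1.16 to -1.11 on the log2 scale and Klf2, with the widest relative range, from -0.41 to -0.23 (largest adjusted p in limma 0.0326). The replicate block changed no call among the members, with an adjusted p of 0.00896 for Klf2, and gave 2369 higher and 2123 lower genes in all, against 2454 and 2234 without it. Over the alternatives that leave out 1 library, 1 to 2 members were higher and 6 were lower. The additional higher member was Egr3, without Treg co-culture 1 (0.35, adjusted p = 0.0323), and over all 15 alternatives its adjusted p ran from 0.0323 to 0.680. Egr2, not called under any of them, ran from -0.11 to 0.045 and changed sign without Treg co-culture 1 (0.045) and without control 1 (0.0065). The cause was not tested. No scaling moved the median of all genes by more than 0.01. Among related lists, the RAS-ERK list had 2 lower genes under median-of-ratios scaling, rescaling, a pseudocount of 0.1, a 5 TPM filter or without control 1, and 3 with eBayes without the trend. The AU-rich list had 0 lower genes with a filter of 5 TPM, which took Cxcl1 out of the test. It also had 0 without control 2, where Cxcl1 was tested and missed the threshold. Unknown depth limits the precision that can be stated for low genes such as Egr4.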
